A study of Mus musculus with 10 samples.

Results

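The 10 genes described here make prostaglandins and leukotrienes in mouse, and were followed through 10 bulk polyA RNA libraries of iKCs, the name the labels give to a cell line of that species. They were taken by symbol from the gene column of the count table: Pla2g4a, Ptgs1, Ptgs2, Ptges, Ptges2, Ptges3, Tbxas1, Alox5, Alox5ap and Ltc4s. All 10 were found among the 55866 genes of the table, and all 10 were among the 15767 genes tested. Every cell had been transduced with a vector carrying the fluorescent marker mOrange and was sorted on mOrange and on viability. By vector, 3 libraries had miR-342-3p overexpression and 2 its control, a mutated miR-342-3p, while 3 had a sponge against miR-342-3p and 2 its control, a scramble sponge. The study asked which genes differ between cells with these vectors. A sponge RNA offers decoy sites that occupy a microRNA. The labels name 1 cell line for all groups and call the libraries biological replicates, without saying how cultures were kept apart.

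Prostaglandins and leukotrienes are lipid mediators cut from the membrane fatty acid arachidonate. Pla2g4a, the cytosolic phospholipase A2, releases arachidonate. The cyclooxygenases Ptgs1, usually constitutive, and Ptgs2, usually induced by inflammatory stimuli, turn it into prostaglandin H, which Ptges, Ptges2 and Ptges3 isomerise to prostaglandin E and Tbxas1 to thromboxane A. Alox5 with its helper Alox5ap makes leukotriene A, which Ltc4s joins to glutathione. Macrophages are a known source of both families of mediators in the liver.

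Both mature arms of the microRNA are shown because the first is what the vectors deliver or occupy. Capitals mark the seed, bases 2 to 8 (RefSeq, GRCm38.p6, plus strand, chr12:108658680-108658702 for the 3p arm and chr12:108658638-108658659 for the 5p arm).
mmu-miR-342-3p: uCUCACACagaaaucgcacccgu
mmu-miR-342-5p: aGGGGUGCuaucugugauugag
For each gene, the longest 3′ UTR in the annotation (GENCODE vM21, GRCm38) was searched for matches to the 3p seed. Ptgs1, Ptgs2 and Tbxas1 held a match, which is 3 of 10 genes, against 24.2% of the 11916 tested genes with a UTR. The windows of 30 bases below show the matched letters in capitals, at base 84 of the 921 bases of the Ptgs1 UTR, bases 802 and 1159 of 2445 in Ptgs2 and base 160 of 781 in Tbxas1. They lie at chr2:36251424-36251453, chr1:150106573-150106602, chr1:150106930-150106959 and chr6:38952341-38952370, all on the plus strand. The Tbxas1 window lies well inside the gene (chr6:38852338-39061519 in the deposited coordinates, of a later build), far short of its end. The UTR searched for Tbxas1 may thus be that of a shorter transcript, in which case the UTR at the gene's end was not searched.
Ptgs1: tggcttggcatTGTGAGAgctgatgctcac
Ptgs2, first: cttaactatgaGTGTGAGctttaaagctcg
Ptgs2, second: ccccatgtcatGTGTGAGctcagcctggat
Tbxas1: tatgtgcatgtGTGTGAGccttatgagtgt
The Ptgs1 match is of the 7mer-A1 kind, pairing with seed bases 2 to 7 and followed by A. The others are 7mer-m8 matches, which pair with bases 2 to 8. A match of the 8mer or 7mer-m8 kind was held by 15.2% of the same 11916 genes. The UTRs of the other 7 genes held no match to the 3p seed, and Ptges held 1 match to the 5p seed.

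The libraries held 25712732 to 59259988 counts each. The counts of sponge replicate 3 and scramble replicate 1 stood joined in 1 field of the file and were separated by likelihood, which was possible for all 10 genes. The overexpression and mutated control labels were checked on reads over the Mir342 hairpin. Overexpression libraries averaged 9.64 ± 1.54 CPM (read counts scaled to library size, SD, n = 3) and mutated control libraries 3.04 ± 0.256 CPM (SD, n = 2). All 5 sponge and scramble libraries had 0 reads, so these reads cannot tell sponge from scramble. General macrophage genes were abundant, with Cd68, a lysosomal protein, at 883 CPM or more and Adgre1, which encodes F4/80, at 418 to 486 CPM. Of the Kupffer cell genes, Clec4f and Timd4 had 0 reads in every library, Vsig4 averaged 0.0403 CPM and Cd163 0.58 CPM, while Id3 (5.07 CPM), Marco (3.43), Nr1h3 (2.17) and Cd5l (2.09) were detected at low levels. Summed markers of hepatocytes, stellate cells, lymphocytes, neutrophils and mast cells stayed under 1 CPM in every library.

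Per exon length, the leukotriene helper Alox5ap and the prostaglandin E synthase Ptges3 led. Alox5ap averaged 89.5 CPM per kilobase over the 10 libraries, above 97% of tested genes, and Ptges3 averaged 80.01 CPM per kilobase. Pla2g4a (13.2 CPM per kilobase), Tbxas1 (10.3), Ptgs1 (6.9) and Ltc4s (6.74) stood in the middle. Ptges2 (3.18), Ptgs2 (3.1) and Alox5 (1.57) were lower still, and Ptges, the inducible prostaglandin E synthase, was last at 0.17 CPM per kilobase, above 9.98% of tested genes. Of the 9 neighbouring pairs in this order, 4 had ranges that did not overlap: Ptges3 over Pla2g4a, Tbxas1 over Ptgs1, Ltc4s over Ptges2 and Alox5 over Ptges. These ranges hold the spread between libraries only. The length joins all annotated exons of a gene and can exceed that of its main mRNA, which can shift the order. Without length, Ltc4s (6.83 CPM) lay below Ptges2 (16.1 CPM), while the others of these 4 pairs kept their order. Ptgs1 stood above Ltc4s in 5 of 10 libraries and Ptges2 above Ptgs2 in 6 of 10, so neither pair differed beyond its spread. The remaining pairs kept their order in 9 or 10 of 10 libraries with ranges that overlapped.

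**Figure D1:**
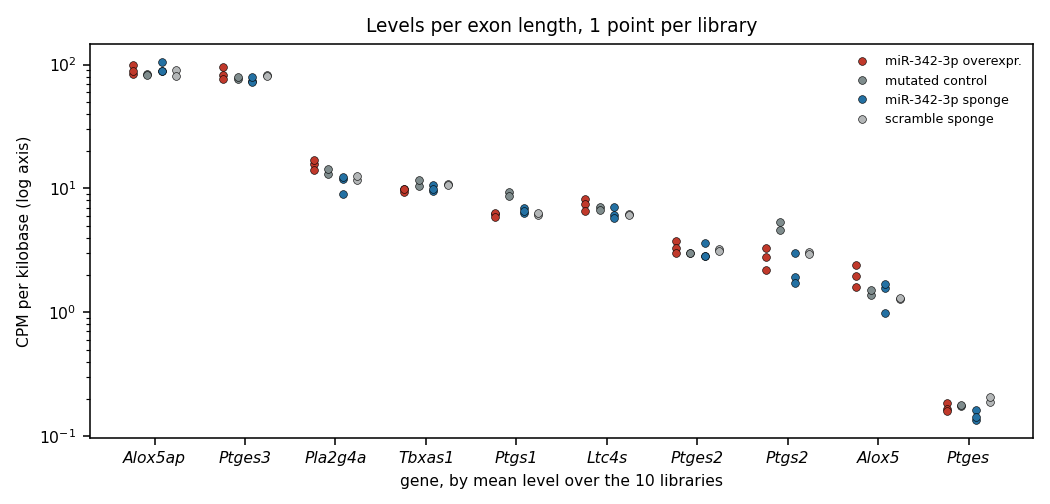
Level of each gene in CPM per kilobase of exon (log axis), 1 point per library, coloured by group; genes run from the highest mean to the lowest. Alox5ap and Ptges3 stand near 100 CPM per kilobase, and Ptges is under 0.3 CPM per kilobase in every library.

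Within each branch the levels were uneven. Alox5ap mRNA exceeded Alox5 mRNA per length by a mean ratio of 47.1 with overexpression and 57.8 in the mutated control, and of 69.9 with the sponge and 66.2 with the scramble sponge. Ptgs1 exceeded Ptgs2 per length in every library, with mean ratios of 2.31 with overexpression and 1.82 in the mutated control, and 3.12 with the sponge and 2.07 with the scramble sponge. Ptges3 exceeded Ptges2 per length by 21.8 to 26.5 times over all libraries. The intronless copy Ptges3-ps also collected 13.7 to 16.5 CPM, so reads could be split between it and Ptges3, whose level is uncertain to that extent.

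Ptgs1 was lower with overexpression than in the mutated control, and was the single gene of the 10 that passed the test in that comparison. Its locus is chr2:36120438-36142284 on the plus strand, in the coordinates of the deposited table. It had 24.4, 24.6 and 22.9 CPM with overexpression, against 36.3 and 34 CPM in the mutated control. It had 24.8, 26.9 and 25.5 CPM with the sponge, against 23.7 and 24.8 CPM with the scramble sponge. The mutated control libraries stood above all 8 others, and the other 3 groups lay between 22.9 and 26.9 CPM.

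The log2 fold change of Ptgs1 for overexpression over mutated control was -0.55 (SE 0.07), a level 1.47-fold lower, with an adjusted p of 0.0093 (edgeR, Benjamini-Hochberg over all tested genes). A gene is said to pass, or to be called, at an adjusted p under 0.05. In that comparison 0.539% of all tested genes passed and 0.292% passed as lower. The call was lost without overexpression replicate 2 (adjusted p = 0.0617), mutated control replicate 1 (0.206) or mutated control replicate 2 (0.124), with log2 fold changes of -0.59 to -0.50 whichever library was left out. Over the scramble sponge, with which the comparison shares its overexpression libraries, the log2 fold change with overexpression was -0.02 (SE 0.07, adjusted p = 0.928). Between the control vectors, mutated control over scramble sponge, it was 0.53 (SE 0.08), with an adjusted p of 0.0628 by edgeR and 4.04e-06 by DESeq2, the lowest of 19 alternatives that reached up to 0.903. Overexpression or mutated control over scramble sponge sets a microRNA vector against a sponge vector, so the kind of vector and its insert cannot be told apart. The sponge gave 0.08 (SE 0.07, adjusted p = 1) over the scramble sponge. The overexpression effect minus the sponge effect was -0.64 (SE 0.10, adjusted p = 0.0978), and the test for any difference among the 4 groups gave Ptgs1 an adjusted p of 0.0158, where 0.419% of tested genes passed. That last call was lost without overexpression replicate 2, either mutated control library, sponge replicate 1, either scramble library, or sponge replicate 3 and scramble replicate 1 together.

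Ptgs2, the inducible cyclooxygenase, had its highest values in the mutated control as well. It lies at chr1:149975782-149983978, plus strand, on the same chromosome as Pla2g4a (chr1:149705369-149837041, minus strand). It had 12.8, 10.04 and 15.1 CPM with overexpression, against 21.3 and 24.6 CPM in the mutated control. It had 8.91, 13.8 and 7.94 CPM with the sponge, against 14 and 13.6 CPM with the scramble sponge. The mutated control again stood above every other library, while sponge replicates 1 and 3 were the lowest and sponge replicate 2 lay between the scramble libraries.

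The log2 fold change of Ptgs2 for overexpression over mutated control was -0.87 (SE 0.21), and its adjusted p of 0.0939 by edgeR did not pass. DESeq2 gave an adjusted p of 0.00387 for the same difference, and over the 19 alternatives the adjusted p ran from 7.69e-13 to 0.483, with 5 of them past the threshold. Over the scramble sponge, overexpression gave -0.14 (SE 0.21, adjusted p = 0.799) and the mutated control gave 0.73 (SE 0.23, adjusted p = 0.518). The sponge gave -0.43 (SE 0.21, adjusted p = 1) over the scramble sponge, and -0.71 without sponge replicate 2 or -0.28 without sponge replicate 3. Ptgs2 thus varied 3.1-fold between its lowest and highest library, against 1.59-fold for Ptgs1.

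The platelet and endothelial marker sums were highest in the mutated control, as were the cyclooxygenases. The summed platelet list, 6 genes, was 32.3 to 43.1 CPM with overexpression and 44.4 to 52.5 CPM in the mutated control, and 25.6 to 29.5 CPM with the sponge and 26.8 to 33.1 CPM with the scramble sponge. Nearly all of it was Pf4, 4 of the 6 genes averaged under 1 CPM, and the defining platelet gene Gp1bb had 0 reads. The summed endothelial list, 6 genes, was 21.2 to 24.4 CPM with overexpression and 28.8 to 31.1 CPM in the mutated control, and 24 to 25.1 CPM with the sponge and 23.2 to 25.1 CPM with the scramble sponge. In that list 3 of 6 genes averaged under 1 CPM and most of the sum was Kdr, a growth factor receptor, which was called lower with overexpression than in the mutated control (-0.47 on the log2 scale, SE 0.08, adjusted p = 0.0352, edgeR), while the defining gene Pecam1 stayed at 0.57 CPM or less. The part of these markers in the Ptgs1 and Ptgs2 differences was not tested. In bulk RNA, fewer cells that express a gene and less RNA per cell cannot be told apart.

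**Figure D2:**
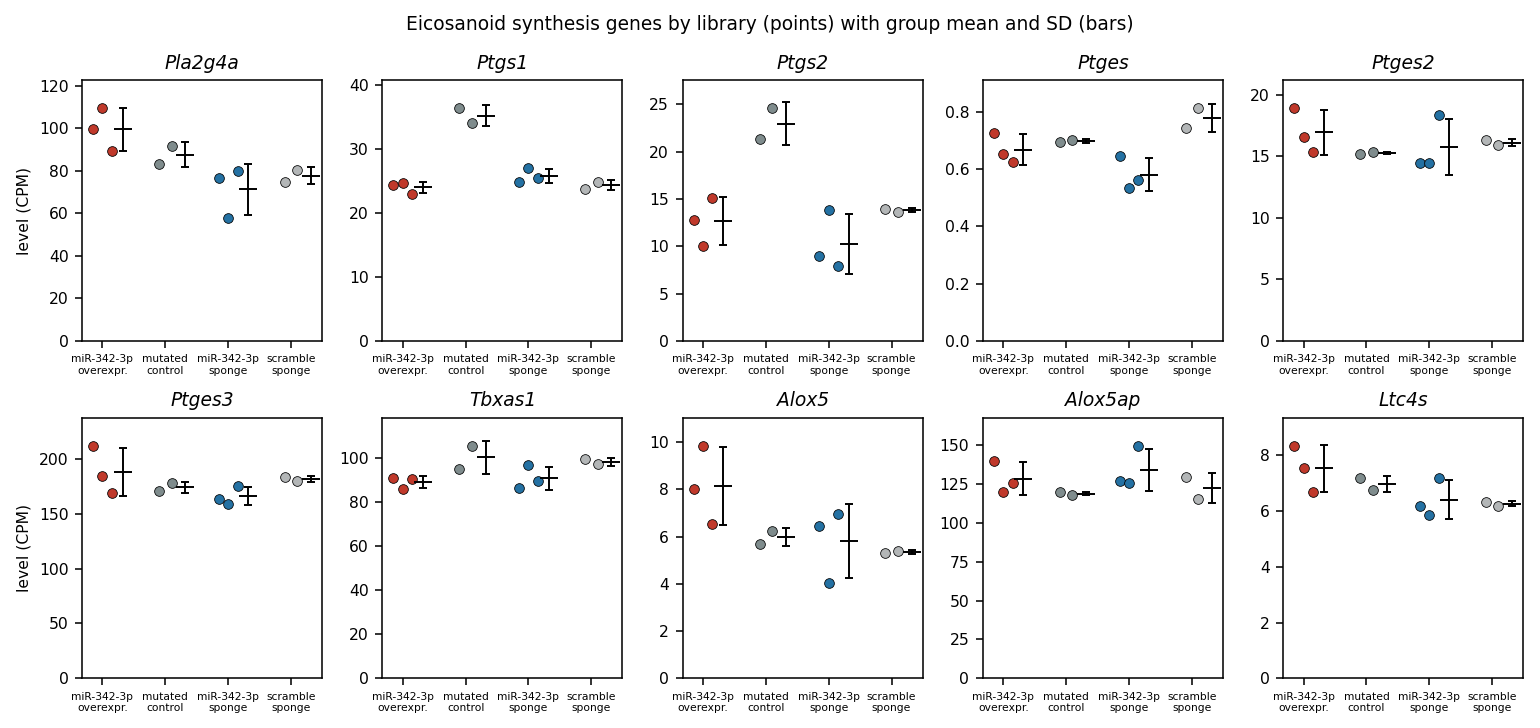
Level of each gene in CPM by group, 1 point per library, with the group mean and SD as a bar beside the points; each panel has its own axis from 0. Ptgs1 and Ptgs2 are highest in both mutated control libraries (34 and 36.3 CPM, and 21.3 and 24.6 CPM), and Pla2g4a and Alox5 have their highest means with overexpression (99.6 and 8.13 CPM).

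The promoters of the cyclooxygenases are shown because both genes were highest in the same group (RefSeq, GRCm38.p6, 250 bases before to 50 after the start, plus strand). Ptgs1 is at chr2:36230176-36230475 and Ptgs2 at chr1:150099781-150100080, and capitals mark the motifs found.
Ptgs1: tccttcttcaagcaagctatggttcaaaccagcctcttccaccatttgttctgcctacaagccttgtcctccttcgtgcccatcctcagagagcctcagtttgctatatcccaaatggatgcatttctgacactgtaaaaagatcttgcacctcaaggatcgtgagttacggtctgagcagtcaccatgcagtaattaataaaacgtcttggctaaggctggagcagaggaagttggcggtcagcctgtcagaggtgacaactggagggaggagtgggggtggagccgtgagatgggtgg
Ptgs2: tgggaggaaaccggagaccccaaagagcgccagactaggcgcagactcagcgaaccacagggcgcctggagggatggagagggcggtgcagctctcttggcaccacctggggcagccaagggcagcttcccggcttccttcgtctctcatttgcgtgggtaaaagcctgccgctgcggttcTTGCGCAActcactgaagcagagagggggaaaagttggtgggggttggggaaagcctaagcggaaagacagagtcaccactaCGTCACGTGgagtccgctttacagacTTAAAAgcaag
Both strands were searched for the core promoter motif TATAAA and its variant spelling TTAAAA, the cAMP-response motif CGTCA, the E-box CACGTG and the C/EBP motif TTNNGCAA. The Ptgs2 window held TTNNGCAA at -69, CGTCA at 14, CACGTG at 17 and TTAAAA at 40 bases from the annotated start, with CGTCA and CACGTG sharing 2 bases. Of 32851 promoter windows, 10.8% held TTNNGCAA, 20.8% CGTCA, 7.15% CACGTG, 19.2% TTAAAA and 13.6% TATAAA. The Ptgs1 window held none of the 5 motifs.

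Tbxas1, the thromboxane A synthase at chr6:38852338-39061519, varied less. It had 90.9, 85.9 and 90.3 CPM with overexpression, against 94.7 and 105 CPM in the mutated control. It had 86.2, 96.5 and 89.5 CPM with the sponge, against 99.4 and 96.9 CPM with the scramble sponge. Overexpression and sponge libraries each lay below both libraries of their own control, with sponge replicate 2 just under the lower scramble library.

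The log2 fold change of Tbxas1 was -0.17 (SE 0.07, adjusted p = 0.247) for overexpression over mutated control and -0.11 (SE 0.07, adjusted p = 1) for sponge over scramble sponge, and neither passed. Without mutated control replicate 2 the first of these was -0.08. Ptgs1, Ptgs2 and Tbxas1, with a 3p seed match in the UTR searched, had an unadjusted p under 0.05 by edgeR in overexpression over mutated control. Of all tested genes 18.2% reached that level, in either direction. All 3 were lower with overexpression there. The part of the seed matches in this was not tested. The Tbxas1 match lies far short of the gene's end and may be that of a shorter transcript. Over the scramble sponge the same genes had log2 fold changes of -0.02, -0.14 and -0.14 with overexpression, and of 0.08, -0.43 and -0.11 with the sponge, none of which passed.

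**Figure D3:**
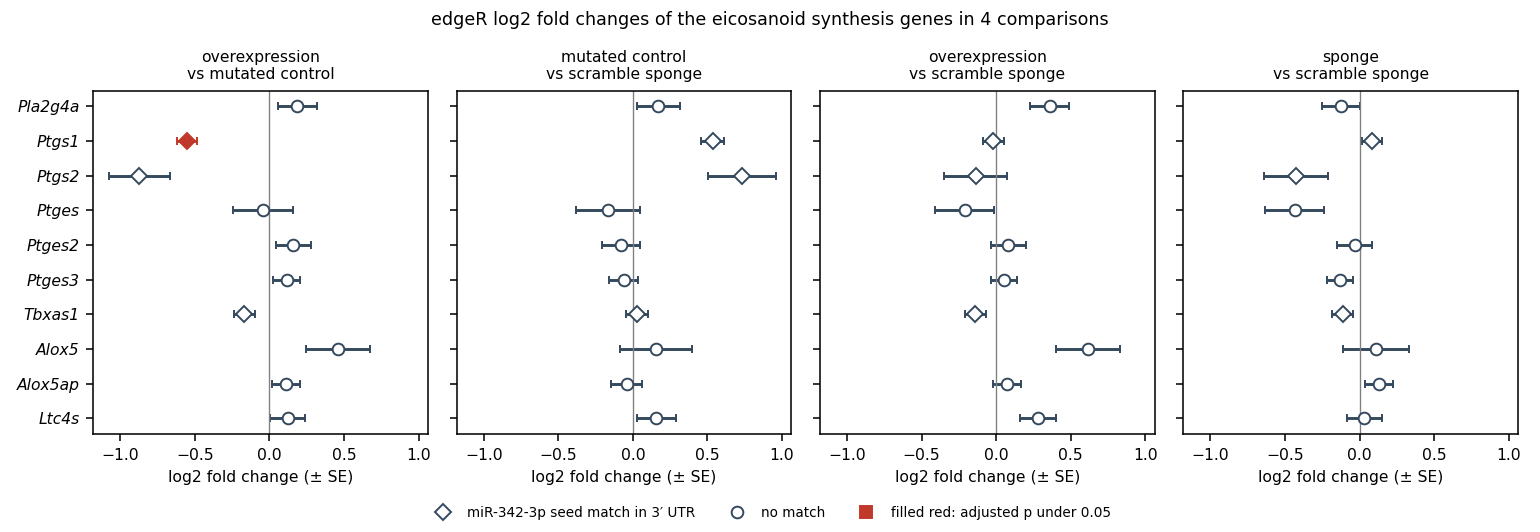
Log2 fold change (edgeR, ± SE) of each gene in 4 comparisons that share libraries. Diamonds are genes with a miR-342-3p seed match in the longest annotated 3′ UTR, and filled red marks an adjusted p under 0.05. The match behind the Tbxas1 diamond lies far short of the gene's end and may be that of a shorter transcript. Ptgs1 in overexpression over mutated control (-0.55) is the single filled marker, and its marker for overexpression over scramble sponge lies at -0.02.

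Pla2g4a, which releases arachidonate, and Alox5, the 5-lipoxygenase, had their highest group means with overexpression. Pla2g4a had 99.9, 109.5 and 89.4 CPM with overexpression, against 83.4 and 91.8 CPM in the mutated control. It had 76.7, 57.6 and 79.8 CPM with the sponge, against 74.9 and 80.6 CPM with the scramble sponge. Overexpression replicate 3 overlapped the mutated control, and sponge replicate 2 was the lowest of all 10 libraries.

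Alox5 (chr6:116387038-116438139, minus strand) had 8.02, 9.85 and 6.54 CPM with overexpression, against 5.69 and 6.24 CPM in the mutated control. It had 6.45, 4.02 and 6.96 CPM with the sponge, against 5.29 and 5.41 CPM with the scramble sponge. The overexpression libraries stood above the libraries of both controls, and sponge replicate 2 was again the lowest. Over the 10 libraries the log2 CPM of Pla2g4a and Alox5 had a Pearson correlation of 0.907, given as a description of libraries that share depth and scaling.

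Neither gene passed any of the 6 edgeR tests. For overexpression over mutated control the log2 fold change was 0.19 (SE 0.13, adjusted p = 0.442) for Pla2g4a and 0.46 (SE 0.21, adjusted p = 0.284) for Alox5. Over the scramble sponge overexpression gave 0.36 (SE 0.13, adjusted p = 0.29) for Pla2g4a and 0.62 (SE 0.22, adjusted p = 0.288) for Alox5. The sponge gave -0.12 for Pla2g4a and 0.11 for Alox5 over the scramble sponge, each with an adjusted p of 1. Without the low-count filter, Alox5 passed in overexpression over mutated control (adjusted p = 0.0141, edgeR). In that setting 1390 genes were called there, against 85 with the filter. Alox5 (0.000503) and Pla2g4a (0.00285) also passed without the filter in overexpression over scramble sponge. There 747 genes were called, against 7 with the filter. The other alternatives called neither gene in these comparisons.

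Ltc4s, the leukotriene C synthase at chr11:50127288-50129443, had 8.36, 7.56 and 6.69 CPM with overexpression, against 7.18 and 6.77 CPM in the mutated control. It had 6.18, 5.87 and 7.19 CPM with the sponge, against 6.33 and 6.2 CPM with the scramble sponge. The overexpression libraries overlapped the mutated control and stood above both scramble libraries, where the log2 fold change was 0.28 (SE 0.12, adjusted p = 0.347). Alox5ap (chr5:149201577-149224963) ranged from 115.5 to 149.8 CPM over all 10 libraries, and its log2 fold changes in the 4 comparisons ran from -0.04 to 0.13. Neither gene passed a test in any of the 4 comparisons.

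The prostaglandin E synthases gave no call. Ptges (chr2:30779483-30819875), induced together with Ptgs2 in many macrophages, was rare, with 16 to 47 reads per library. It had 0.726, 0.654 and 0.622 CPM with overexpression, against 0.693 and 0.702 CPM in the mutated control, and the groups overlapped. It had 0.645, 0.532 and 0.562 CPM with the sponge, against 0.743 and 0.812 CPM with the scramble sponge. The sponge libraries were all lower than the scramble libraries (log2 fold change -0.43, SE 0.20, adjusted p = 1), and the difference did not pass.

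Ptges2 (chr2:32285908-32295784, 14.4 to 18.9 CPM over all libraries) and Ptges3 (chr10:127894823-127913141, 159 to 212 CPM) had log2 fold changes of -0.13 to 0.16 in the 4 comparisons. Each had its highest value in overexpression replicate 1, and the correlation of their log2 CPM over the 10 libraries was 0.816, again as a description.

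The 10 genes were also counted by comparison. For overexpression over mutated control 1 of 10 passed, where 0.539% of tested genes did, and 3 of 10 had an unadjusted p under 0.05, where 18.2% did. The groups did not overlap for 6 of 10, where 38.2% of tested genes did not overlap, with Ptgs1, Ptgs2 and Tbxas1 lower and Ptges2, Alox5 and Alox5ap higher. The median log2 fold change of the 10 was 0.11, against -0.01 over all tested genes.

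For sponge over scramble sponge edgeR called 0 of 10, none had an unadjusted p under 0.05 and DESeq2 called 0. Of all tested genes 0% passed by edgeR and 2.33% had an unadjusted p under 0.05, while DESeq2 called 1 gene. Ptges, Ptges3 and Tbxas1 were lower without overlap, 3 of 10, where 15.2% of tested genes did not overlap. The median was -0.07, against 0.00 over all tested genes. For overexpression over scramble sponge edgeR called 0 of 10, where 0.0444% of tested genes passed. DESeq2 called 0 of 10 and 234 genes in all. Pla2g4a, Alox5 and Ltc4s had an unadjusted p under 0.05 by edgeR, where 13.4% of tested genes reached that level. Groups did not overlap there for 5 of 10, where 31% of tested genes did not. For mutated control over scramble sponge edgeR called 0 of 10, where 0.0254% of tested genes passed. DESeq2 called 1 of 10, Ptgs1, and 90 genes in all. Ptgs1 and Ptgs2 had an unadjusted p under 0.05 by edgeR, where 6.47% of tested genes reached that level. Groups of 2 libraries each did not overlap for 8 of 10, where 48.4% of tested genes did not. For the overexpression effect minus the sponge effect edgeR called 0 of 10, where 0% of tested genes passed. DESeq2 called 1 of 10, again Ptgs1, and 48 genes in all. Ptgs1 alone had an unadjusted p under 0.05 by edgeR, where 8.06% of tested genes reached that level.

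Strand was not used in counting, and exons of 4 genes overlap a transcript on the opposite strand: Ptgs1 with Gm43621 over 148 bases, Tbxas1 with Gm42962 over 144, Alox5ap with Gm19719 over 189 and Ltc4s with Gm26542 over 268. The partners held 95, 75, 850 and 467 counts in all libraries together, against 12022, 41808, 56768 and 3068 for the genes themselves, and reads of such pairs cannot be told apart where they overlap.

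The wider pathway gave no call. In each of 6 lists (19 genes of arachidonate release, 10 other prostanoid synthases and carriers, 9 leukotriene and lipoxygenase genes, 9 of eicosanoid breakdown, 8 receptors and 23 controllers of Ptgs2, all as tested) 0 genes passed in any of the 6 edgeR tests. At an unadjusted p under 0.05 in overexpression over mutated control the counts were 6, 2, 2, 3, 1 and 9 in that order, where 18.2% of all tested genes reached that level. For sponge over scramble sponge they were 1, 1, 2, 0, 2 and 1, where 2.33% did. Among the remaining synthases Hpgds, which makes prostaglandin D in blood cells, had 275 CPM on average, while Ptgis and Ptgds, the prostacyclin and brain-type prostaglandin D synthases, had 3 reads each over all libraries. Lta4h, which makes leukotriene B, had 57.2 CPM and Abcc1, an exporter of leukotriene C, 265 CPM. Of the receptors, per exon length, the prostacyclin receptor Ptgir (12.2 CPM per kilobase), the leukotriene receptor Cysltr1 (8.89) and the prostaglandin E receptor Ptger4 (4.72) led, and Ptgfr, Ptgdr and Oxgr1 had 0 reads.

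The pathway genes named by the rule were set side by side in overexpression over mutated control. Ephx1, a microsomal epoxide hydrolase, had 38.7, 34.7 and 41.6 CPM with overexpression, against 53.1 and 53.2 CPM in the mutated control, without overlap (log2 fold change -0.47, SE 0.09, adjusted p = 0.0515). Lpcat4, an acyltransferase that rebuilds membrane phospholipids, had 12.9, 12.4 and 9.8 CPM with overexpression, against 7.2 and 8.03 CPM in the mutated control (0.63, SE 0.14, adjusted p = 0.0839). Dpep2, a dipeptidase that turns leukotriene D into leukotriene E, gave -0.40 (SE 0.09, adjusted p = 0.0916). Cotl1, an actin-binding protein that also binds 5-lipoxygenase, gave 0.53 (SE 0.13, adjusted p = 0.102), with 458.5 CPM on average with overexpression and 319 CPM in the mutated control. Of the controllers, Fosb, a subunit of the transcription factor AP-1, had 96.2, 85.5 and 126 CPM with overexpression, against 200.3 and 178 CPM in the mutated control (-0.89, SE 0.23, adjusted p = 0.109), and Fosl2, another subunit, gave -0.24 (SE 0.10, adjusted p = 0.251). None of these passed. The 12 further genes that the naming rule took from the lists (Acsl1, Daglb, Abcc4, Slco3a1, Akr1b3, Mgst1, Cyp4f18, Ptgr1, Ptgir, Ptger4, Ptgdr2 and Jun) had log2 fold changes of -0.34 to 0.40 and adjusted p-values of 0.153 to 0.935 in the same comparison. Among them Jun, also a subunit of AP-1, went the other way from Fosb and Fosl2. It was higher with overexpression, without overlap (0.21, SE 0.07, adjusted p = 0.173, edgeR).

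The genes whose pattern was most like Ptgs2 over the 10 libraries, by Pearson correlation of log2 CPM among 10295 genes, were Odc1 (0.983), Pmaip1 (0.966) and Clec4n (0.961). Odc1, the ornithine decarboxylase of polyamine synthesis, had 158, 147 and 171 CPM with overexpression, against 212 and 238 CPM in the mutated control, and 127, 164 and 130.4 CPM with the sponge, against 164 and 176 CPM with the scramble sponge. It shared with Ptgs2 the high mutated control and the single higher sponge library, replicate 2. Such likeness follows from choosing the genes by correlation over the same libraries. Clec4n, the C-type lectin Dectin-2, was also called lower with overexpression, against the mutated control (-1.03 on the log2 scale, SE 0.16, adjusted p = 0.0291, edgeR). For Ptgs1 the most alike genes were Dhrs11 (0.929), Slc12a9 (0.928) and Stimate (0.92), with smaller differences: their log2 fold changes for overexpression over mutated control were -0.33, -0.18 and -0.17, and none passed.

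**Figure D4:**
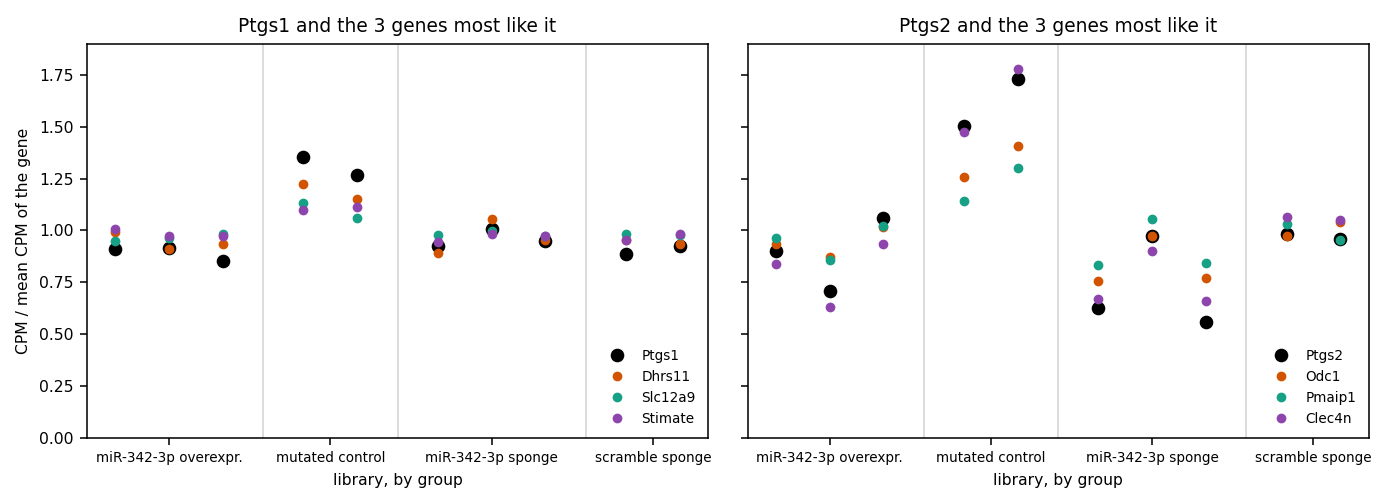
CPM of each gene divided by its mean over the 10 libraries (left, Ptgs1 and its 3 most alike genes; right, Ptgs2 and its 3 most alike genes), 1 point per library, by group. All 8 genes have both mutated control libraries above 1, and on the right sponge replicate 2 stands above the other 2 sponge libraries. The alike genes were picked by correlation over these libraries, so a shared pattern follows from the choice.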

How the data were processed

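Polyadenylated RNA was measured in 10 libraries grouped by title. The deposited values are whole-number counts of reads per gene, not normalized; the authors made them with featureCounts 2.0.1 on GENCODE vM30, minimum overlap 10 bases, strand setting 0, per the file headers. The submitters' processing notes name STAR 2.7.6a, Trimmomatic, FastQC 0.11.6 and Subread, and the build GRCm38. vM30 belongs to a later build, so gene loci are as the deposited table gives them, while sequences come from GRCm38. The counting command names 12 libraries; 10 are analysed here. Libraries held 25712732 to 59259988 counts, and since nothing says how cultures were kept apart, p-values measure only spread among libraries, which may be technical.

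Lines hold 15 fields under 16 names, because sponge replicate 3 and a scramble library stand joined in 1 field. Each joined number was split where a negative binomial likelihood (dispersion 0.1) around the gene's share in the intact libraries was highest, at least 100 times the next split; 51 of 55866 genes were left out and all 10 genes reported were resolved. Header order made the joined library scramble replicate 1, so its group is certain and its number is not.

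Counts were tested with edgeR 4.0.16 in R 4.3.3 (quasi-likelihood, robust, TMM factors, expression filter by group), all 10 libraries entered together, leaving 6 residual degrees of freedom over 15767 genes. Adjustment was by Benjamini-Hochberg across those genes, at a threshold of 0.05, and an SE is the size of the log2 fold change over the root of F. Levels are CPM with TMM factors, per kilobase of the deposited exon length where genes are compared. Code was tested on simulated data. Alternatives were DESeq2 1.42.0, limma-voom (limma 3.58.1), other scalings, no low-count filter, 2 groups only, replicate blocks and left-out libraries.

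The 10 genes, the pathway and marker lists and the tests were chosen with earlier results of these data known. Named besides the 10 were pathway genes called in any test or, per list, up to 3 with the smallest p among the 4 groups, and the 3 genes most alike by Pearson correlation (mean log2 CPM of at least 2) to Ptgs1 and Ptgs2; Mir342, Ptges3-ps, Pf4, Kdr and the abundant or absent pathway genes were added after their values were seen.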

Additional observations from a re-analysis of the deposited data

How the results depend on the processing

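Of 940 log2 fold changes of the 10 genes under an alternative, 895 kept their direction and side of the threshold, 17 newly passed, 5 no longer passed and 23 reversed. Ptgs1 in overexpression over mutated control kept its direction in 19 of 19 alternatives and its call in 14. The reversals concerned values that no test called, and the cause of the shifts was not tested.

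DESeq2 called 500 genes for overexpression over mutated control, 1 for sponge over scramble sponge, 90 for mutated control over scramble sponge, 234 for overexpression over scramble sponge, 48 for the overexpression effect minus the sponge effect and 849 for any difference, with 2, 0, 1, 0, 1 and 3 of the 10 genes. Without the low-count filter these were 1390, 24, 149, 747, 331 and 1707 genes, with 3, 0, 2, 2, 1 and 4 of the 10. With only the compared groups fitted, overexpression over mutated control called 34 genes, and mutated control over scramble sponge 574 with 2 of the 10 (Ptgs1 and Ptgs2). Without both libraries of the joined field, mutated control over scramble sponge called 1 gene, overexpression over scramble sponge 3, and the test for any difference 0 of the 10; there Alox5 and Ltc4s in sponge over scramble sponge were -0.0542 and -0.0428 and Alox5ap in mutated control over scramble sponge 0.03934.

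Same-numbered libraries did not deviate together: 13 pairs correlated at -0.414 to 0.156 by title number and -0.414 to 0.0995 by description number. With the title or the description number as a replicate block, overexpression over mutated control called 0 genes and 0 of the 10 (Ptgs1 -0.54 and -0.55, adjusted p = 0.121 and 0.115), mutated control over scramble sponge 1 and 1 gene, and any difference 5 and 6 genes with 0 of the 10. The title block called 3 genes for overexpression over scramble sponge, where Ptgs1 was 0.000254.

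Leaving out each library in turn gave 0 to 279 called genes and 0 to 2 of the 10 for overexpression over mutated control, 0 to 36 and 0 to 1 for mutated control over scramble sponge, 1 to 37 for overexpression over scramble sponge, 0 to 7 for the difference of effects, and 12 to 273 and 0 to 2 for any difference. A group left with 1 library was assumed to vary like the others. Log2 fold changes that changed sign ran from -0.1208 to 0.00361 for Ptges in overexpression over mutated control. In sponge over scramble sponge they ran from -0.1568 to 0.02962 for Ptges2, -0.2121 to 0.009294 for Pla2g4a, -0.04062 to 0.3236 for Alox5 and -0.05612 to 0.0941 for Ltc4s. In mutated control over scramble sponge they ran from -0.05704 to 0.1038 for Tbxas1 and -0.1214 to 0.04116 for Alox5ap. In overexpression over scramble sponge they ran from -0.04916 to 0.02012 for Ptgs1, -0.2588 to 0.01136 for Ptgs2, -0.008371 to 0.1519 for Ptges2, -0.04114 to 0.1353 for Ptges3 and -0.007266 to 0.1555 for Alox5ap. In the difference of effects they ran from -0.1317 to 0.0325 for Tbxas1 and -0.1012 to 0.06728 for Alox5ap. Depth limits Ptges most, with 16 to 47 reads per library.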
